A study of Mus musculus with 12 samples.

Results

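The insulin-like growth factor (IGF) family was examined in RNA from the striatum of mice given repeated morphine. It comprised 10 genes: the ligands Igf1 and Igf2, the receptors Igf1r and Igf2r, and the binding protein genes Igfbp2, Igfbp3, Igfbp4, Igfbp5, Igfbp6 and Igfbp7. Members were chosen by gene symbol, as rows of the expression table that the platform annotation assigns to that gene alone. The family itself was selected on limma results of the 2 morphine groups against saline, which were already known. The members' values in these contrasts are therefore a description, and their calls are no independent evidence. Each member had 1 probe set, so the family took 10 of the 21780 probe sets tested, which stand for 19935 genes.

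IGF-1 and IGF-2 are secreted peptides built like insulin. Both signal through the IGF-1 receptor, a tyrosine kinase that feeds the PI3-kinase and Akt pathway, while the IGF-2 receptor (also the mannose 6-phosphate receptor) takes IGF-2 into lysosomes. The binding proteins hold the peptides outside cells, and can lengthen their life or keep them from the receptor. In the adult rodent brain Igf2 is known mainly from the choroid plexus, the leptomeninges and vessel walls, and Igfbp2 from the choroid plexus, leptomeninges and astrocytes, whereas Igf1 is made by scattered neurons and microglia.

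The mice were male Swiss-Albino animals, 2 months old. ButMorphine mice received sodium butyrate, an inhibitor of histone deacetylases, at 300 mg/kg before morphine at 20 mg/kg in each of 6 induction trials, then a morphine challenge 7 days later. SalMorphine mice received vehicle before morphine in induction and the same challenge, and Saline mice received vehicle alone in induction. The labels disagree on the Saline challenge, which is saline in the source names and morphine for all animals in the protocol text, so a difference from Saline covers either both morphine exposures or the induction alone. RNA was taken 1 h after the challenge, and each array, an Affymetrix Mouse Gene 1.0 ST chip, took equal amounts from 4 mice. The arrays numbered 3 in ButMorphine, 3 in SalMorphine and 6 in Saline. No label says that the pools came from separate cohorts, so p-values cover only how far these pools varied, which may be technical.

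The deposited values are log-scale differences from a baseline, taken here as log2, and not expression levels. Which arrays formed the baseline of each morphine array was not stated in the labels, and it is read here as saline. Saline arrays 1 and 2 mirror each other around 0 in every row, as do 3 and 4, and 5 and 6, so the Saline mean and median are 0 by construction, and the 6 arrays hold 3 independent values. Any difference between the 3 pairs is absent from the values. The Saline ranges given below therefore hold only the spread within pairs, and lying outside them is not a comparison with the full spread of controls. Array medians over the tested probe sets lay between -0.0153 and 0.0137. Centring removed levels apart from a coarse class that the rounding of the numbers still shows. A row stands in the brighter class (8 to 16) when all its values keep the rounding step of stored values of 8 or more. Every other row stands in the dimmer class (4 to 8), which can therefore include rows that cross 8. The brighter class held 6 of 7 measured probe sets of striatal projection neuron markers, 4 of 10 members, 0 of 11 choroid plexus markers and 25.9% of all probe sets. The labelled tissue could be checked against its markers only to that extent.

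Igf2 and Igfbp2 were higher in every ButMorphine and every SalMorphine array than in any Saline array, and in both groups they were the members with the largest differences. Igfbp4 was lower in SalMorphine. Igfbp5 was higher in all ButMorphine arrays but did not pass the test. Neither receptor gene passed the test.

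Of the 10 members, limma called 2 higher and 0 lower in ButMorphine against Saline at an adjusted p under 0.05. Over all probe sets, 1.76% were called higher and 0.592% lower in that contrast. In SalMorphine against Saline it called 2 higher and 1 lower, where 1.3% of all probe sets were called higher and 1.15% lower. The members' median difference was 0.0651 in ButMorphine and 0.0340 in SalMorphine, beside 0.00713 and -0.00327 over all probe sets. Both contrasts share the Saline arrays, so calls in one are not a repeat of calls in the other. Counting arrays alone, 3 members in ButMorphine lay wholly above Saline and 0 wholly below, where 7.22% and 4.57% of all probe sets did. In SalMorphine 2 lay wholly above and 1 wholly below, where 3.93% and 4.17% did. Since the family was picked with these contrasts in view, nothing is read from the counts.

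**Figure D1:**
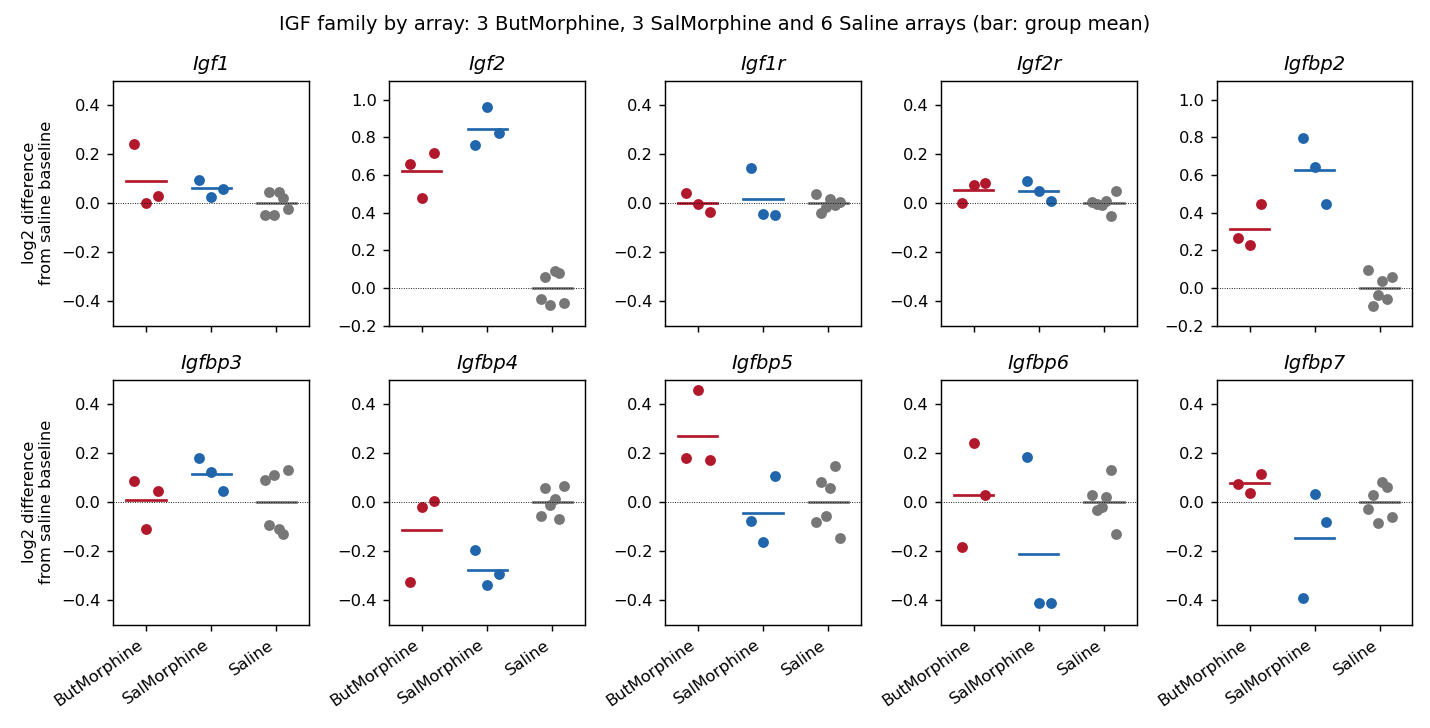
Log2 difference from the saline baseline (y axis) of each member in each array, with a bar at the group mean, for 3 ButMorphine, 3 SalMorphine and 6 Saline arrays. The y axis of Igf2 and Igfbp2 runs higher than that of the other 8 panels. Igf2 lies between 0.478 and 0.960 in the ButMorphine and SalMorphine arrays, and between -0.0903 and 0.0903 in Saline.

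Igf2, the fetal growth peptide that stays active in brain barriers, gave the largest difference of the family. It stood at 0.661, 0.478 and 0.720 in the 3 ButMorphine arrays and at 0.758, 0.960 and 0.822 in the 3 SalMorphine arrays, against -0.0903 to 0.0903 in Saline. No array of either morphine group came near the Saline range, and the highest ButMorphine array lay below the lowest SalMorphine array. Igf2 rose 1.54-fold in ButMorphine (0.62 ± 0.13 on the log2 scale, SD, n = 3, limma adjusted p = 0.000196). In SalMorphine it rose 1.80-fold (0.85 ± 0.10, SD, n = 3, limma adjusted p = 1.76e-05). Among all 21780 probe sets these were the 27th and 13th highest values of the signed difference.

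Igfbp2, a binding protein gene of choroid plexus and glia, came next in size. It stood at 0.264, 0.231 and 0.448 in ButMorphine and at 0.798, 0.642 and 0.447 in SalMorphine, against -0.0980 to 0.0980 in Saline. The morphine groups met at about 0.45, where the highest ButMorphine and the lowest SalMorphine array lay, and neither reached down to Saline. Igfbp2 rose 1.55-fold in SalMorphine (0.63 ± 0.18, SD, n = 3, limma adjusted p = 0.000475). In ButMorphine the rise was 1.24-fold (0.31 ± 0.12, SD, n = 3) with a limma adjusted p of 0.0414. That call was lost without any 1 ButMorphine array (log2 difference 0.339, 0.356 and 0.247 without arrays 1, 2 and 3) and without any 1 Saline array (adjusted p up to 0.142 over these fits). It was lost too when each group mean was tested against 0 with no Saline array (adjusted p = 0.0712).

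The start regions of these 2 genes are printed because they are the members that moved together in both morphine groups. The sequences are 300-base windows around RefSeq transcript starts in GRCm38.p6, read 5′ to 3′, and for each gene the window with the most motif matches is shown (for Igf2, 1 of 2 windows with 2 matches each). RefSeq lists 4 starts for Igf2 and 2 for Igfbp2, and the probe set does not tell which start was used. Capitals mark matches on either strand to a GC box (GGGCGG), a glucocorticoid receptor half-site (TGTTCT, printed as its complement AGAACA) or an E-box (CACGTG).
Igf2, chr7:142657447-142657746, minus strand: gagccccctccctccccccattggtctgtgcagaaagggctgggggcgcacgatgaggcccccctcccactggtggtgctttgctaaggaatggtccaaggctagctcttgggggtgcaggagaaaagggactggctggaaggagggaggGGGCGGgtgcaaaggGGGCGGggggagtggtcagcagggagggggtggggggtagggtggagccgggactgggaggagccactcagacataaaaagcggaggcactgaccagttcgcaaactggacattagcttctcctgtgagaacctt
Igfbp2, chr1:72824230-72824529, plus strand: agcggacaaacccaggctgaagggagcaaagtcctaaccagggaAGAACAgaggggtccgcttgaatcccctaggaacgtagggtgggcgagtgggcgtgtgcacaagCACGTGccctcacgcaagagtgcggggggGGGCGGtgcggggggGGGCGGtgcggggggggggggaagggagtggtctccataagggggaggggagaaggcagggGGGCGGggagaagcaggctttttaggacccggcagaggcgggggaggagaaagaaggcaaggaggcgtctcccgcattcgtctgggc

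The Igf2 window held 2 GC boxes. The Igfbp2 window held 3 GC boxes, 1 glucocorticoid receptor half-site and 1 E-box. Of 32851 windows of this length in the RefSeq table, 35.7% held a GC box, 19% the half-site and 7.15% the E-box. The printed windows were picked for their matches, so these shares are not a like comparison. A TATA box (TATAAA, in 13.6% of windows) and a CRE half-site (TGACG, in 20.8%) were also searched and occurred in neither printed window. All 10 members matched the table, with 14 windows. The other Igfbp2 window, at chr1:72825137-72825436, held 0 matches to the motifs searched. A further Igf2 start, at chr7:142666767-142667066, was the only other family window with the half-site. These matches describe letters and not binding.

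Igf1, the other ligand, differed little. Its ButMorphine arrays ranged from 0.00125 to 0.242 and its SalMorphine arrays from 0.0254 to 0.0969, against -0.0470 to 0.0470 in Saline. ButMorphine array 1 alone gave the value of 0.242. The difference from Saline was 0.09 ± 0.13 in ButMorphine (limma adjusted p = 0.376) and 0.06 ± 0.04 in SalMorphine (limma adjusted p = 0.637; SD, n = 3 each).

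The 2 receptor genes stayed within 0.15 of the baseline. Igf1r, the signalling receptor, averaged 0.00 ± 0.04 in ButMorphine and 0.02 ± 0.11 in SalMorphine (SD, n = 3 each), with limma adjusted p of 0.99 and 0.903 against Saline. SalMorphine array 1 stood at 0.145, while arrays 2 and 3 stood at -0.0418 and -0.0469. Igf2r, the clearing receptor of IGF-2, had the smallest residual spread of the family (0.0372, at the 9.59th percentile of all probe sets). Its difference from Saline was 0.05 in ButMorphine (95% interval -0.02 to 0.13) and 0.05 in SalMorphine (-0.02 to 0.12), so changes of the size seen in Igf2 lay outside both intervals.

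**Figure D2:**
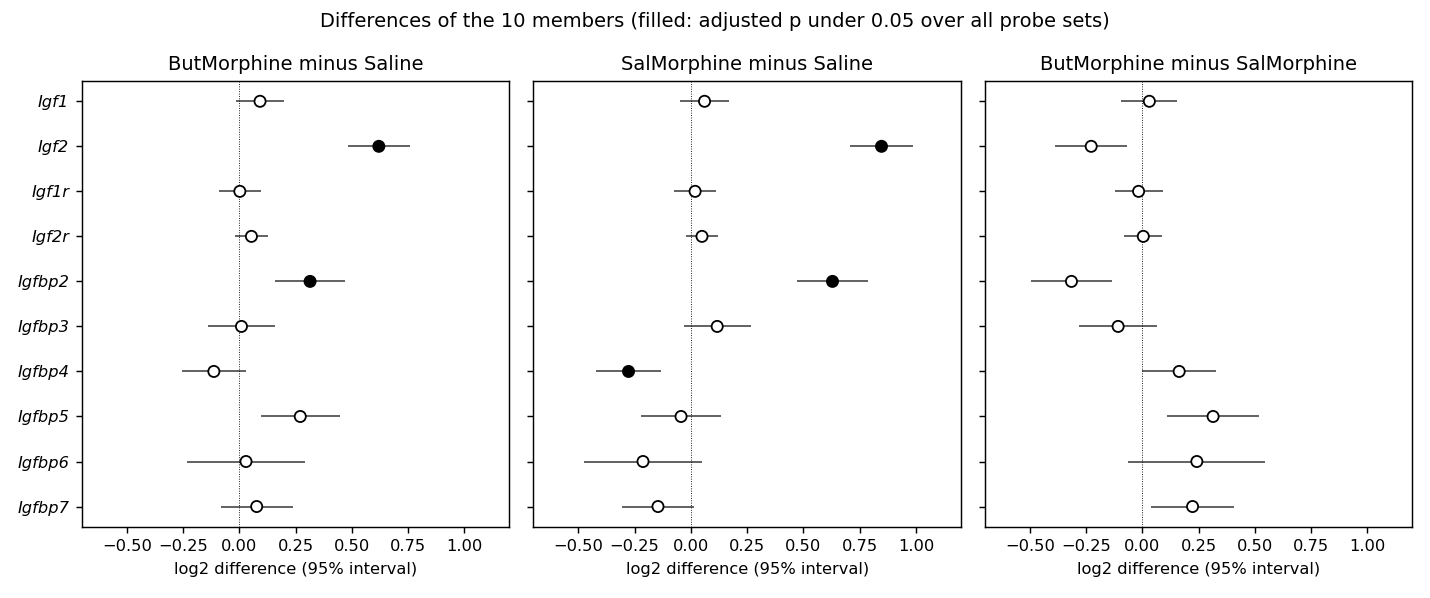
Log2 differences of the 10 members (x axis) with their 95% intervals from limma, in ButMorphine minus Saline, SalMorphine minus Saline and ButMorphine minus SalMorphine. Filled points passed an adjusted p of 0.05 over all 21780 probe sets, which was the case for Igf2 and Igfbp2 in the first 2 panels, for Igfbp4 in the SalMorphine panel, and for no member in the third.

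The remaining binding proteins did not move as a block. Igfbp4, which binds both ligands and is cut by the protease pappalysin, stood at -0.327, -0.0195 and 0.00607 in ButMorphine and at -0.197, -0.339 and -0.295 in SalMorphine, against -0.0666 to 0.0666 in Saline. All SalMorphine arrays lay below Saline, while 1 of 3 ButMorphine arrays did. Igfbp4 fell to 0.825 of Saline in SalMorphine (-0.28 ± 0.07, SD, n = 3, limma adjusted p = 0.0466), and was at 0.924 of Saline in ButMorphine (-0.11 ± 0.19, limma adjusted p = 0.414). Of the 12 fits with 1 array left out, the SalMorphine call held in 4. It was lost without SalMorphine array 2 or 3 or any 1 Saline array (adjusted p up to 0.149), and also with each array centred on its median (adjusted p = 0.0553).

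Igfbp5, a binding protein with affinity for extracellular matrix, had its highest values in ButMorphine. It stood at 0.180, 0.458 and 0.173 in ButMorphine and at -0.0755, -0.162 and 0.106 in SalMorphine, against -0.148 to 0.148 in Saline. Every ButMorphine array exceeded every Saline and every SalMorphine array. The ButMorphine difference from Saline was 1.21-fold (0.27 ± 0.16, SD, n = 3) but did not pass (limma adjusted p = 0.104). In SalMorphine it was -0.04 ± 0.14 (limma adjusted p = 0.876).

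Igfbp6, a binding protein that prefers IGF-2, varied most of all members, with a residual SD of 0.202 at the 99th percentile of probe sets. It stood at -0.183, 0.243 and 0.0283 in ButMorphine and at 0.185, -0.411 and -0.413 in SalMorphine, against -0.131 to 0.131 in Saline. SalMorphine array 1 was high and the other two were low, so the group mean of -0.21 ± 0.34 (SD, n = 3) did not pass (limma adjusted p = 0.446). Without SalMorphine array 1 the difference was -0.41 and passed (limma adjusted p = 0.0233).

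Igfbp7, a vascular binding protein with low affinity for IGFs, also turned on that array. It stood at 0.0751, 0.0383 and 0.117 in ButMorphine and at -0.392, 0.0357 and -0.0824 in SalMorphine, against -0.0845 to 0.0845 in Saline. The SalMorphine mean was -0.15 ± 0.22 (SD, n = 3, limma adjusted p = 0.375), and the ButMorphine mean was 0.08 ± 0.04 (SD, n = 3, limma adjusted p = 0.661). Igfbp3, the main carrier in blood, overlapped Saline in both groups, with means of 0.01 ± 0.10 in ButMorphine and 0.12 ± 0.07 in SalMorphine (SD, n = 3 each).

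The comparison of ButMorphine with SalMorphine asks what differed when butyrate was given during induction. No group received butyrate without morphine, so an effect of butyrate itself and an altered response to morphine cannot be told apart. No member was called in either direction, where 0% of all probe sets were called higher and 0% lower. At an unadjusted p under 0.05, 4 of 10 members and 1898 of 21780 probe sets passed. Igf2 was lower in ButMorphine by a factor of 0.854 (log2 -0.23, 95% interval -0.39 to -0.07, limma adjusted p = 0.427). Igfbp2 was lower by a factor of 0.804 (log2 -0.32, interval -0.50 to -0.13, limma adjusted p = 0.328). The 2 members that rose most were thus nominally smaller with butyrate, without passing.

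Igfbp5 and Igfbp7 lay the other way. Igfbp5 was 1.24-fold higher in ButMorphine than in SalMorphine (log2 0.31, interval 0.11 to 0.52, limma adjusted p = 0.39) and Igfbp7 1.17-fold higher (log2 0.22, interval 0.04 to 0.41, limma adjusted p = 0.488). In these 2 genes the groups did not overlap, with all ButMorphine arrays above, and in Igf2 all ButMorphine arrays lay below. Such separation was seen in 7.73% (above) and 3.11% (below) of all probe sets. For Igf1, Igf1r and Igf2r the intervals of the difference lay within 0.155 of 0.

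Choroid plexus markers were high in the arrays where Igf2 was high, while few leptomeningeal and fibroblast markers were called. The choroid plexus list had 9 of 11 measured markers called higher in ButMorphine and 11 in SalMorphine, where 1.76% and 1.3% of all probe sets were. With 1 array left out, 7 to 10 were called in ButMorphine (7 without ButMorphine array 1) and 10 to 11 in SalMorphine. The mean difference of the 11 markers was 0.991, 0.744 and 1.02 in the ButMorphine arrays. It was 1.23, 1.26 and 1.05 in the SalMorphine arrays, against -0.108 to 0.108 in Saline. ButMorphine array 2 was lowest and SalMorphine array 2 highest in this mean, and the same arrays were lowest and highest in Igf2. Igfbp2 was also lowest in ButMorphine array 2, but highest in SalMorphine array 1. In ButMorphine against SalMorphine all 11 choroid plexus markers had differences below 0, from -0.507 to -0.0818 with a median of -0.264. Of them 0 were called, and 1 without SalMorphine array 3. Of 11 leptomeningeal and fibroblast markers, 0 were called in ButMorphine and 1 in SalMorphine (Ogn, a matrix proteoglycan, 0.22), with 2 in SalMorphine when its array 1 was left out. Their mean was 0.00303 to 0.0857 in ButMorphine and 0.00929 to 0.160 in SalMorphine, against -0.0587 to 0.0587 in Saline. The part of either tissue in the Igf2 and Igfbp2 values was not tested. In pooled tissue RNA, more cells of a type and more RNA per cell cannot be told apart.

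**Figure D3:**
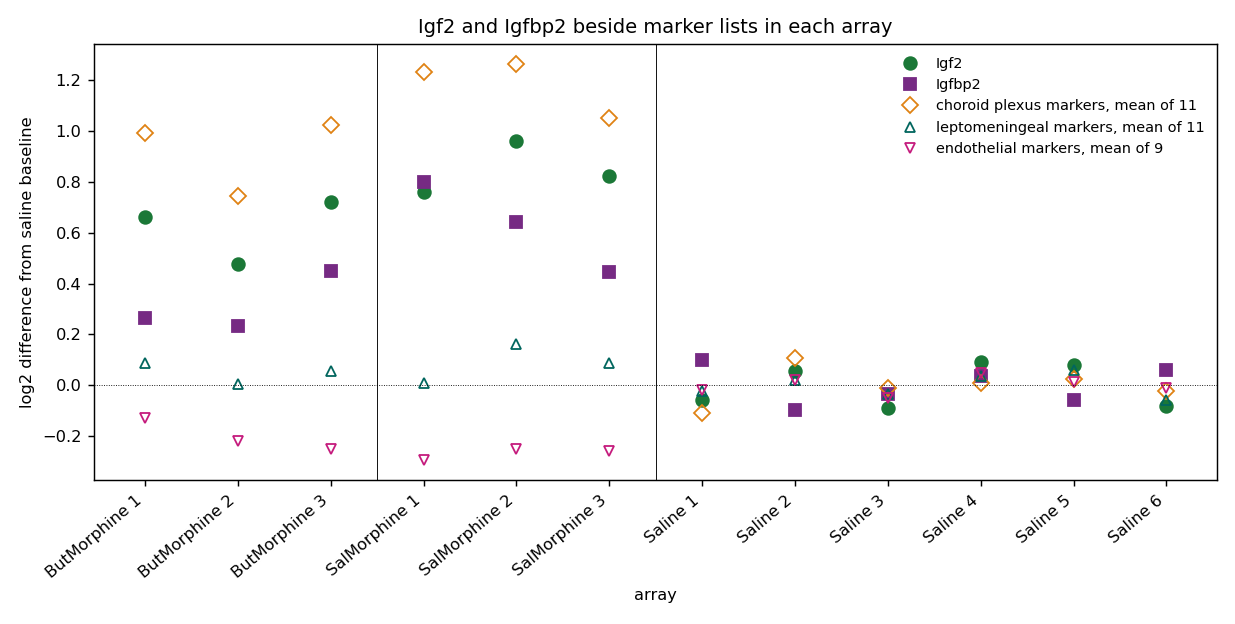
Log2 difference from the saline baseline (y axis) in each of the 12 arrays (x axis) for Igf2, Igfbp2 and the mean of 3 marker lists. The choroid plexus mean is 0.744 to 1.26 in the ButMorphine and SalMorphine arrays, above Igf2 in each of them. It includes Ttr, whose difference from Saline is 3.42 in ButMorphine and 3.75 in SalMorphine. The median difference of the list is 0.559 in ButMorphine and 0.828 in SalMorphine, below 0.62 and 0.85 for Igf2. The endothelial mean lies below 0 in the 6 ButMorphine and SalMorphine arrays.

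Other cell markers are given for the binding proteins made by vessels and glia. Beside their calls, 0.592% of all probe sets were called lower in ButMorphine and 1.15% in SalMorphine, and 1.76% and 1.3% higher. Endothelial markers had 4 of 9 called lower in each morphine group, with means of -0.250 to -0.129 in ButMorphine and -0.295 to -0.252 in SalMorphine, against -0.0497 to 0.0497 in Saline. Without ButMorphine array 2 or 3, 2 of these were called in ButMorphine. Mural cell markers had 0 of 6 called in ButMorphine and 1 lower in SalMorphine (2 without SalMorphine array 2). Microglial markers had 2 of 8 lower in ButMorphine and 3 in SalMorphine (1 without SalMorphine array 3), and astrocyte markers had 1 of 9 higher in each. The astrocyte call in ButMorphine was lost in 7 of 12 fits with 1 array left out, while 2 were called without SalMorphine array 1 or Saline array 5. Of 7 projection neuron markers, 0 were called in ButMorphine and 1 lower in SalMorphine, and that call was lost without ButMorphine array 1, SalMorphine array 3 or any 1 Saline array. Their mean was -0.133 to -0.102 in SalMorphine and -0.0237 to 0.0535 in ButMorphine, against -0.0616 to 0.0616 in Saline. All 7 lay below Saline in SalMorphine, with differences of -0.190 to -0.00444. All 7 were higher in ButMorphine than in SalMorphine, by 0.0568 to 0.200, with 0 called. The parts these cells had in the members' values were not tested.

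The genes whose pattern over the 12 arrays was most like Igf2 were found by the root mean square difference from it. They were Slc2a12, a glucose transporter gene (0.0788), the choroid plexus homeobox gene Otx2 (0.105), the chloride channel gene Clic6 (0.125), the folate receptor gene Folr1 (0.133) and the NF-kappaB inhibitor Nfkbia (0.155). Slc2a12 averaged 0.53 in ButMorphine and 0.87 in SalMorphine, close to 0.62 and 0.85 for Igf2. Otx2, Clic6 and Folr1 also stand in the choroid plexus list. For Igfbp4, the member with the lowest mean over both morphine groups, the nearest were the orphan receptor gene Gpr6 (0.0473), Ss18 (0.0587), Neu2 (0.0687), the Ras exchange factor Rasgrp2 (0.0689) and the transcription factor Pou3f4 (0.0714). No member was called lower in both morphine groups, so Igfbp4 was taken for its size alone.

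**Figure D4:**
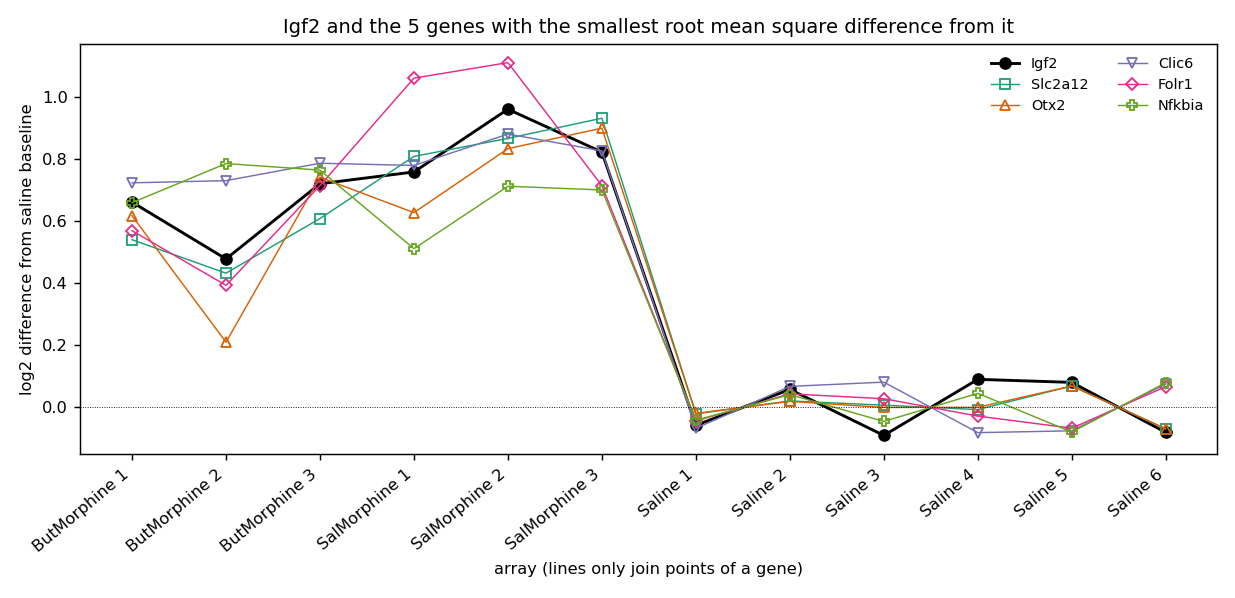
Log2 difference from the saline baseline (y axis) of Igf2 and of the 5 genes nearest to it in each of the 12 arrays (x axis); lines only join the points of a gene. All 6 genes are high in the ButMorphine and SalMorphine arrays, and Otx2 drops to 0.210 in ButMorphine array 2, where Igf2 is at 0.478.

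The genes around the family were followed in 5 lists with 60 measured genes and 68 probe sets. In ButMorphine against Saline 4 probe sets were called higher and 0 lower, and in SalMorphine 2 higher and 0 lower. Over all probe sets 1.76% were called higher and 0.592% lower in ButMorphine, and 1.3% and 1.15% in SalMorphine. The medians of the 68 probe sets were 0.0102 and 0.00934. All calls lay among FoxO factors, which Akt holds out of the nucleus, and their textbook targets.

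Klf15, a metabolic zinc finger factor also induced by glucocorticoids, rose by 0.49 ± 0.10 in ButMorphine and 0.52 ± 0.08 in SalMorphine (limma adjusted p = 0.000465 and 0.000324). Trib1, a pseudokinase gene, rose by 0.31 ± 0.05 and 0.26 ± 0.06 (SD, n = 3 each, limma adjusted p = 0.00271 and 0.00962). It missed the threshold in SalMorphine without SalMorphine array 3 (adjusted p up to 0.0562 over the fits without 1 array). Bcl6, a transcriptional repressor, rose by 0.47 ± 0.12 in ButMorphine (limma adjusted p = 0.00655) and stood at 0.31 ± 0.19 in SalMorphine (0.0524), where it passed without SalMorphine array 2 or ButMorphine array 3. Sesn1, a stress-induced inhibitor of mTOR signalling, rose by 0.20 ± 0.06 in ButMorphine (limma adjusted p = 0.0166), and was lost without ButMorphine array 1 or 2 (up to 0.096). The factors themselves, Foxo1, Foxo3, Foxo4 and Foxo6, were not called in either group, and neither were the targets Ccng2 and Sesn3. In SalMorphine the factors stood at -0.22, 0.09, -0.11 and -0.13, and these targets at -0.18 and -0.03. In ButMorphine the factors stood at 0.01, 0.15, -0.08 and -0.11, and these targets at -0.09 and -0.05. The list thus went both ways.

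The other 4 lists held no call in these contrasts. Of 15 probe sets of carriers, proteases and locus partners, the lowest p belonged to Vtn, which encodes the matrix and plasma protein vitronectin (-0.21 in SalMorphine, limma adjusted p = 0.0778), and Stc1, the hormone stanniocalcin (-0.16 in ButMorphine, 0.223). Vtn passed without ButMorphine array 2 (0.0339). Igfbp1, a liver binding protein outside the family set, was at -0.03 in ButMorphine and 0.08 in SalMorphine. Ins2, the insulin gene next to Igf2, was at 0.01 and 0.06 and did not pass. Of 6 insulin and insulin receptor probe sets, Insr came nearest, at 0.14 in ButMorphine (limma adjusted p = 0.159), followed by Lrp1 (-0.08, 0.28).

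Among 17 probe sets of receptor adaptors and brakes, Irs4 stood at -0.0796, 0.0278 and -0.0337 in ButMorphine and at 0.0102, 0.479 and 0.690 in SalMorphine, against -0.0418 to 0.0418 in Saline. Its SalMorphine difference of 0.39 ± 0.35 (SD, n = 3) did not pass (limma adjusted p = 0.0663), but without SalMorphine array 1 it was 0.585 (0.000186). Sos1 passed in SalMorphine without SalMorphine array 2 (0.041). The phosphatase gene Ptpn1, a brake on insulin signalling, was at 0.14 in ButMorphine (0.128). Among 20 probe sets of PI3-kinase, Akt and mTOR, Akt2 was at -0.24 and Pik3r2 at -0.17 in SalMorphine (limma adjusted p = 0.108 and 0.133). A second Akt2 probe set was at -0.20 in SalMorphine (0.265). Without SalMorphine array 1, the first Akt2 probe set and Pik3r2 passed, at -0.357 (0.00586) and -0.255 (0.00623).

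**Figure D5:**
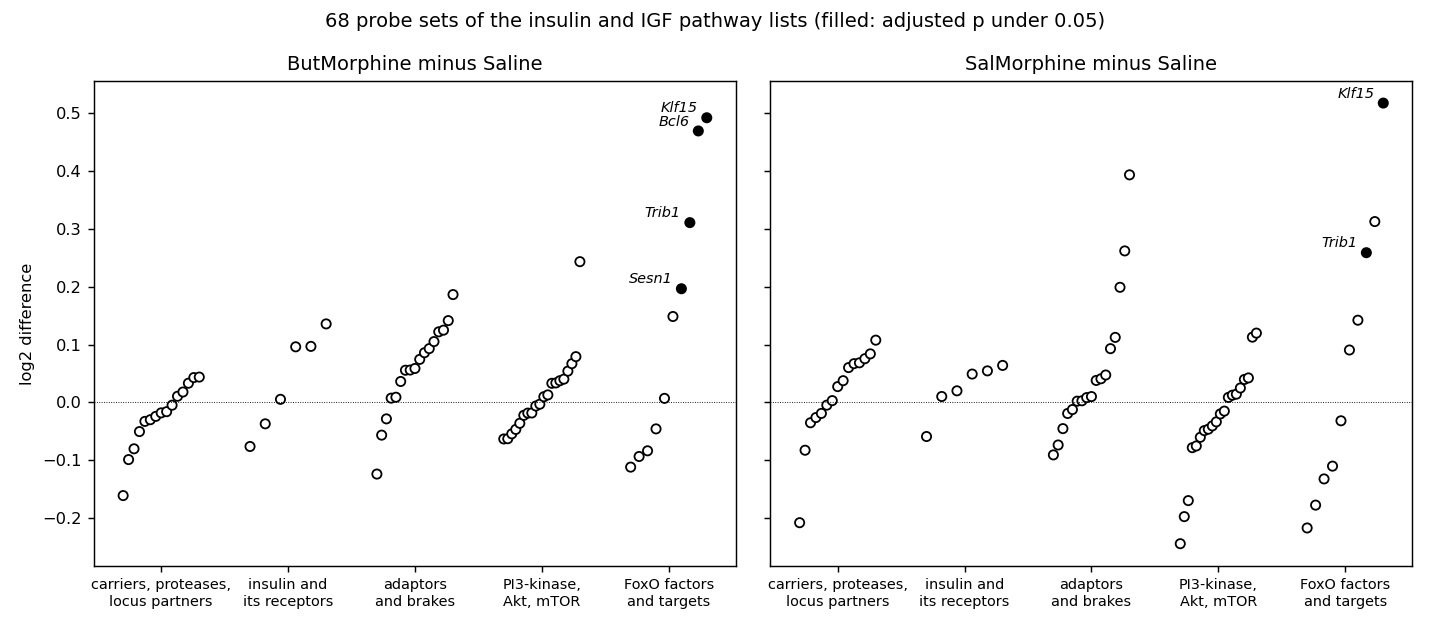
Log2 differences (y axis) of 68 probe sets of the insulin and IGF pathway, by list (x axis), in ButMorphine minus Saline and SalMorphine minus Saline. Filled points passed an adjusted p of 0.05 over all probe sets: 4 in ButMorphine and 2 in SalMorphine, all in the list of FoxO factors and targets.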

How the data were processed

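Expression was measured on 12 Affymetrix Mouse Gene 1.0 ST arrays. The values are those the authors deposited, 28815 rows of log2 differences from a baseline read as saline. The log base and the steps from scanned intensities to these values were not given in the sources used here. Log2 was taken from the rounding: in all 28808 rows with enough decimals (100%) the values are multiples of the step that single-precision numbers have at 4 or more, and in 23.6% of the step at 8 or more. Paired Saline arrays sum to 0 within 1e-06.

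Rows were named from the platform annotation. Of them 21780 had 1 gene symbol and were tested, 1605 had several and 5430 had none; for 21689 the RefSeq table (GRCm38.p6) held the Entrez ID, and it served for names only. One model with 3 group means was fitted to all 12 arrays in limma 3.58.1 (lmFit, eBayes; R 4.3.3), with 9 residual degrees of freedom and 3.87 prior ones. A call is an adjusted p under 0.05, by Benjamini-Hochberg over the 21780 tested probe sets. The 6 Saline arrays hold 3 independent values, so the degrees of freedom are overstated, and fits without 1 Saline array keep its mirror image. The residual spread also lacks any difference between the Saline pairs. The procedure was run on simulated data with 12 independent arrays, so that run does not cover the mirrored Saline arrays. No 2 arrays were copies of the same sign (highest correlation 0.676). That check does not register the paired Saline arrays, which are copies of each other with the sign reversed.

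Members, lists and tests were chosen with earlier results of these data known. From each list the text names up to 6 called genes, or else the 2 with the lowest p. From the marker lists calls are given as counts. Igfbp1, Ins2, the FoxO factors, Ccng2, Sesn3 and Sos1 were named after their values were seen. The alternatives were median centring, eBayes with trend and robust, only bright rows, every row, 1 value per gene, only the groups compared, a replicate block, no Saline array, Saline arrays 1, 3 and 5, and each array left out.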

Additional observations from a re-analysis of the deposited data

How the results depend on the processing

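Igf2 was called higher under all 20 alternatives in SalMorphine (log2 0.79 to 0.891 with 1 array left out), and under 19 of 20 in ButMorphine (0.57 to 0.69), where its difference was above 0 in all 20. It and Igfbp2 are not in the bright class, so that alternative gave no value for them. Igfbp2 was called in SalMorphine under 19 of 20 alternatives and in ButMorphine under 6 of 20, and Igfbp4 in SalMorphine under 7 of 21, each with the same direction throughout. The replicate number as a block, over replicates 1 to 3, ended the calls of Igf2 in ButMorphine (0.65, adjusted p = 0.056) and of Igfbp2 in SalMorphine (0.641, 0.0855), at differences no smaller than without it. Same-numbered ButMorphine and SalMorphine arrays correlated at -0.105, -0.267 and -0.226 in their deviations from the group means. Of these, 0 of 3 correlated best with its own number. With same-numbered Saline arrays, SalMorphine correlated at -0.0018, -0.178 and 0.2015, and ButMorphine at -0.0799, 0.03175 and -0.1955. A shift shared with the baseline would already be gone from these values, so pairing is not excluded. The labels do not say that the numbers mark a batch, and the numbers were not taken to pair the arrays. The block left 41 probe sets called in ButMorphine and 18 in SalMorphine, with 0 and 1 members and 1 pathway gene each, on fewer arrays.

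Over all probe sets 512 were called in ButMorphine and 534 in SalMorphine. eBayes with trend and robust gave 218 and 222, with 1 member in ButMorphine. Only bright rows gave 186 and 212, with 0 and 1 members and 1 and 0 pathway genes. Testing against 0 with no Saline array left 290 in SalMorphine and 1 member in ButMorphine. Saline arrays 1, 3 and 5 left 135 and 102, with 1 member in ButMorphine and 2 and 1 pathway genes. Only the groups compared gave 1134 in ButMorphine. Every row of the table gave 1 member in ButMorphine, and 2 rows in ButMorphine against SalMorphine. The causes were not tested.

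With 1 array left out, calls ran over 206 to 807 in ButMorphine, 219 to 1092 in SalMorphine (219 without SalMorphine array 3, 1092 without array 1) and 0 to 27 in ButMorphine against SalMorphine. Members called were 1 to 2 in ButMorphine, 2 to 4 in SalMorphine and 0 between them, and pathway genes 3 to 4, 1 to 5 and 0 to 1. Centring arrays on their medians moved the contrasts by -0.00708 (ButMorphine against Saline), 0.00415 (SalMorphine against Saline) and -0.0112 (ButMorphine against SalMorphine) and ended the Igfbp4 call in SalMorphine (-0.273, adjusted p = 0.0553), leaving 2 members called there. The number of arrays limits the precision.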

Other observations

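SalMorphine array 1 stood apart from arrays 2 and 3 in several members and pathway genes. Igfbp6 was at 0.185 there, against -0.411 and -0.413 in the other two, and Igf1r at 0.145, against -0.0418 and -0.0469. Igfbp7 was at -0.392, beside 0.0357 and -0.0824. Irs4, an adaptor of insulin and IGF receptors known from the hypothalamus, was at 0.0102, against 0.479 and 0.690. The first Akt2 probe set was at -0.0196, against -0.442 and -0.272. Igf2 did not share this, at 0.758 in array 1 beside 0.960 and 0.822. SalMorphine array 2 stood apart in other genes, such as Bcl6 (0.0956, beside 0.466 and 0.376) and Sos1 (0.0395, beside 0.315 and 0.431). How often each array did so over all probe sets was not counted. The labels give nothing that sets the pool of SalMorphine array 1 apart, and the cause was not tested.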
